A study of Homo sapiens with 12 samples.

Results

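Tumors of mice given acadesine alone were compared directly with tumors of mice given rituximab alone, without reference to the control tumors. The members were the 3 acadesine and the 3 rituximab tumors, chosen by their labels, which are 6 of the 12 arrays of the study. All were xenografts of JEKO-1, a human mantle cell lymphoma line of aggressive type, implanted subcutaneously with Matrigel in female CB17-SCID mice aged 6 to 8 weeks. Acadesine was given at 400 mg/kg and rituximab at 10 mg/kg once a week. The labels give acadesine as daily, and the methods give fewer days than that in each week. Combination mice received both drugs on these schedules, and control mice received vehicle. Tumors were harvested on day 18 and snap frozen, and RNA was taken from 3 tumors of the 6 mice in each group that the authors judged representative, 1 tumor on each array. JEKO-1 is 1 cell line, so the tumors are replicates of a mouse and not of a patient. SCID mice lack functional B and T cells but keep other host cells, such as macrophages, NK cells and complement.

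The drugs reach a lymphoma cell by unlike routes. Acadesine is a nucleoside that enters through nucleoside transporters and is phosphorylated by adenosine kinase to ZMP, an intermediate of purine synthesis that mimics AMP and can activate AMPK, the kinase that senses a low energy state. Rituximab is an antibody against CD20, a surface protein of B cells, and marks the cell for complement and for host cells with Fc receptors. Chaperones, on which much of the account below turns, fold new or damaged proteins. The heat shock factor HSF1 induces many of them by binding the heat shock element, a repeat of GAA and its reverse complement TTC spaced by a pair of bases, in their promoters.

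Heat shock element matches were searched in the bases upstream of the start sites of the chaperone genes, and the stretches that hold them are shown because they belong to genes whose levels are described below. The motif was GAANNTTCNNGAA and its reverse complement TTCNNGAANNTTC, which together cover both strands, and matches were allowed to overlap. It was found in the 250 bases upstream of the start in 120 of 27305 RefSeq promoters (0.439%) and in 4 of the 23 chaperone genes with a promoter in the table (17.4%). These were HSPA6, CHORDC1, DNAJB6 and HSPA8. The promoters of HSPA1B, BAG3 and DNAJB1 did not hold these exact letters in this window. The list was chosen as heat shock and chaperone genes, which makes a share above that of all promoters likely. The share thus says nothing of the 2 drugs. Capitals mark the matches, each sequence runs 5′ to 3′ on the strand of the gene, and coordinates are GRCh38.p14. HSPA6 lies at chr1:161524446-161524498 on the plus strand, CHORDC1 at chr11:90223067-90223129 and HSPA8 at chr11:123062159-123062386, both on the minus strand, and DNAJB6 at chr7:157336853-157336905 on the plus strand.
HSPA6: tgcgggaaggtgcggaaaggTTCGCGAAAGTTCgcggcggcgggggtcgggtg
CHORDC1: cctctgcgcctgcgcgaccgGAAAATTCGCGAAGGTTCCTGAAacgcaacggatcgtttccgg
DNAJB6: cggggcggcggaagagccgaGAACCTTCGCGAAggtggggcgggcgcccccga
HSPA8: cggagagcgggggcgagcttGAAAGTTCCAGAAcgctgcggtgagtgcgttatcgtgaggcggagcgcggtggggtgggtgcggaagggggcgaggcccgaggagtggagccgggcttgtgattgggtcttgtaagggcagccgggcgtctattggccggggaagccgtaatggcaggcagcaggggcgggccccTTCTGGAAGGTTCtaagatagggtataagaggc
CHORDC1 held 3 overlapping matches in 1 run, HSPA8 held 2 matches far apart, and HSPA6 and DNAJB6 held 1 each. A match is a description of the letters and not a site of binding in these tumors.

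The arrays were measured in log2 RMA units, in which a difference of 1 is a doubling of signal, and values ran from 3.09 to 14.3 with a median gene level of 5.26. All 6 tumors were B cell in character, with a mean level of the 13 measured B cell markers between 10.35 and 10.43 in acadesine tumors and between 10.33 and 10.35 in rituximab tumors. Marker lists of fibroblasts, endothelium, macrophages and granulocytes, T and NK cells, adipocytes, erythroid cells and keratinocytes averaged between 3.95 and 5.17 in the acadesine tumors and between 3.95 and 5.01 in the rituximab tumors. The skeletal muscle list averaged 4.52, 4.88 and 4.70 in acadesine tumors 1, 2 and 3, against 4.52, 4.82 and 4.46 in rituximab tumors 1, 2 and 3, so tumor 2 was the highest of each group. Arrays of an acadesine and a rituximab tumor correlated across genes at r = 0.992 to 0.995, against r = 0.993 to 0.996 between arrays of the same group. Array probes are made for human transcripts, and mouse RNA with a like sequence can bind to them. In bulk tumors, fewer cells of a type and less RNA per cell cannot be told apart.

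With limma fitted over 12 arrays and p values adjusted over 18239 genes, 0 genes (0%) differed between acadesine and rituximab tumors at an adjusted p of 0.05, and the smallest adjusted p was 0.0608. At an unadjusted p of 0.05 there were 1409 genes (7.73%), of which 731 (4.01%) were higher and 678 (3.72%) lower in acadesine tumors. The higher ones were dimmer, with a median level of 4.77, against 7.82 for the lower ones, and 54.7% of the higher genes lay in the dimmer part of the array, at or below 5.26, against 33.2% of the lower ones. All 3 acadesine tumors lay above or below all 3 rituximab tumors for 2241 genes (12.3%), 1280 (7.02%) above and 961 (5.27%) below. This split by direction depended on the scale: with each array centred on its median, 43.6% of the separated genes were higher, against 57.1% on the deposited scale, and of those at unadjusted p 0.05 32.4% were higher, against 51.9%. Differences were small, with a median size of 0.104 and a median SE of 0.135. A fold above 1.4 was reached by 189 genes, and above 2 by 3, which were KANSL1L, TPM1 and ACTA1, chosen here for their size after their values were seen.

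**Figure D1:**
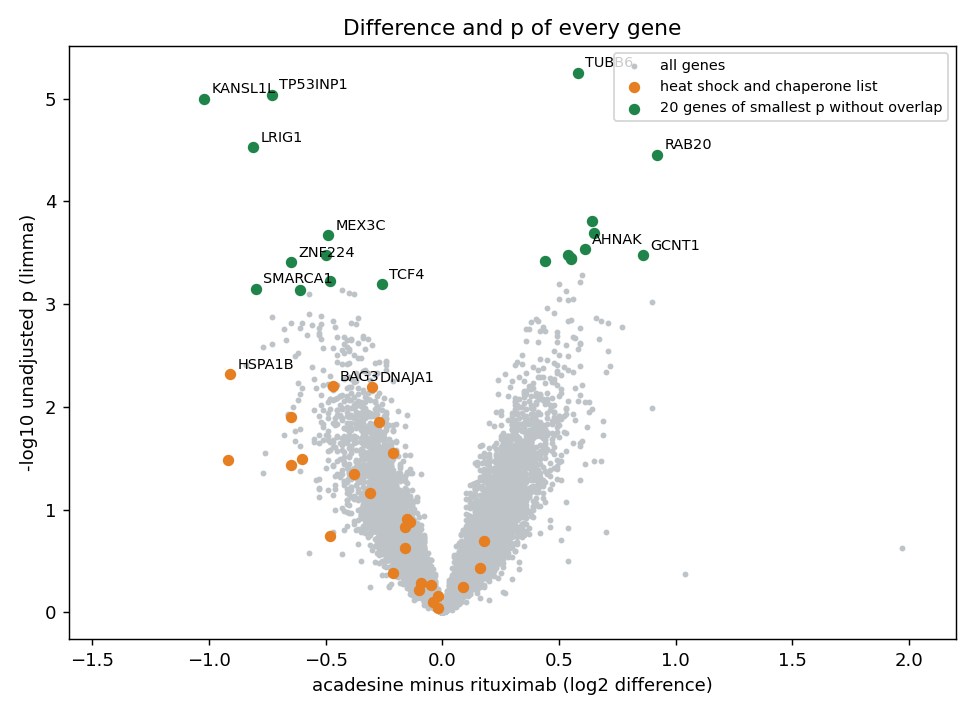
Difference between acadesine and rituximab tumors (x axis, log2, acadesine minus rituximab) and -log10 of the unadjusted limma p (y axis) for all 18239 genes, with the heat shock and chaperone list in orange and the 20 genes named for their small p in green. TUBB6 and RAB20 lie apart on the right, TP53INP1, KANSL1L and LRIG1 on the left, and 23 of the 26 heat shock and chaperone genes lie left of 0.

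Of these genes, 5 (0.0274%) passed a looser threshold, an adjusted p below 0.2 with a fold above 1.4. TUBB6, a beta-tubulin of the microtubule cytoskeleton, had log2 levels of 11.31, 11.03 and 11.23 in acadesine tumors, against 10.67, 10.69 and 10.46 in rituximab tumors. The groups did not overlap, and the difference was 0.58 ± 0.0962 (SE, 3 tumors a group, limma adjusted p = 0.0608). A further TUBB6 probe set gave 0.80 and a dimmer one 0.08. RAB20, a small GTPase of endosomes and phagosomes, had levels of 7.01, 7.27 and 7.04 in acadesine tumors, against 6.20, 6.03 and 6.33 in rituximab tumors. These groups also stood apart, by 0.92 ± 0.175 (SE, limma adjusted p = 0.128).

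The other 3 genes were lower in all acadesine tumors. TP53INP1, a stress-induced p53 target that takes part in autophagy and cell death, had levels of 8.39, 8.20 and 8.33 in acadesine tumors, against 8.97, 9.02 and 9.12 in rituximab tumors, a difference of -0.73 ± 0.125 (SE, limma adjusted p = 0.0608). KANSL1L, a relative of a subunit of a histone acetyltransferase complex, had 5.75, 5.52 and 5.70 in acadesine tumors, against 6.50, 6.75 and 6.80 in rituximab tumors, a difference of -1.02 ± 0.177 (SE, limma adjusted p = 0.0608). LRIG1, a membrane protein that restrains growth factor receptors, had 8.21, 8.40 and 8.61 in acadesine tumors, against 9.0, 9.31 and 9.35 in rituximab tumors, a difference of -0.81 ± 0.153 (SE, limma adjusted p = 0.128). Other probe sets of these genes did not all show the difference. The second TP53INP1 probe set gave -0.19, those of KANSL1L gave -0.70 and 0.04, and that of LRIG1 was near 0 at a much dimmer level of 5.08.

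Control and combination tumors placed these genes differently. TP53INP1 averaged 8.31 ± 0.10 in acadesine tumors, 9.04 ± 0.08 in rituximab tumors, 8.82 ± 0.26 in combination tumors and 8.36 ± 0.11 in control tumors (SD, n = 3 each). Its acadesine mean was thus close to the control mean and its rituximab mean was not, with differences from the shared controls of -0.05 for acadesine and 0.68 for rituximab. TUBB6 averaged 11.19 ± 0.15 in acadesine tumors, 10.61 ± 0.12 in rituximab tumors, 11.28 ± 0.11 in combination tumors and 10.94 ± 0.17 in control tumors (SD, n = 3 each). Here the drugs lay on either side of control, by 0.25 for acadesine and -0.33 for rituximab. RAB20 differed from control by 0.49 in acadesine tumors and by -0.43 in rituximab tumors. KANSL1L differed by -0.42 in acadesine tumors and by 0.60 in rituximab tumors, and LRIG1 by -0.41 in acadesine tumors and by 0.40 in rituximab tumors. The drugs thus lay on either side of the shared controls for these genes as well. All of these genes were picked for a large difference between the drugs, which by itself makes a control mean between them likely. Combination tumors were nearer to the acadesine mean for TUBB6 and RAB20, at 11.28 and 6.95, and nearer to the rituximab mean for TP53INP1, KANSL1L and LRIG1, at 8.82, 6.37 and 9.20. Neither drug alone differed from control for any gene at an adjusted p of 0.05 in the same limma fit, with 1423 genes at an unadjusted p of 0.05 for acadesine and 768 for rituximab.

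**Figure D2:**
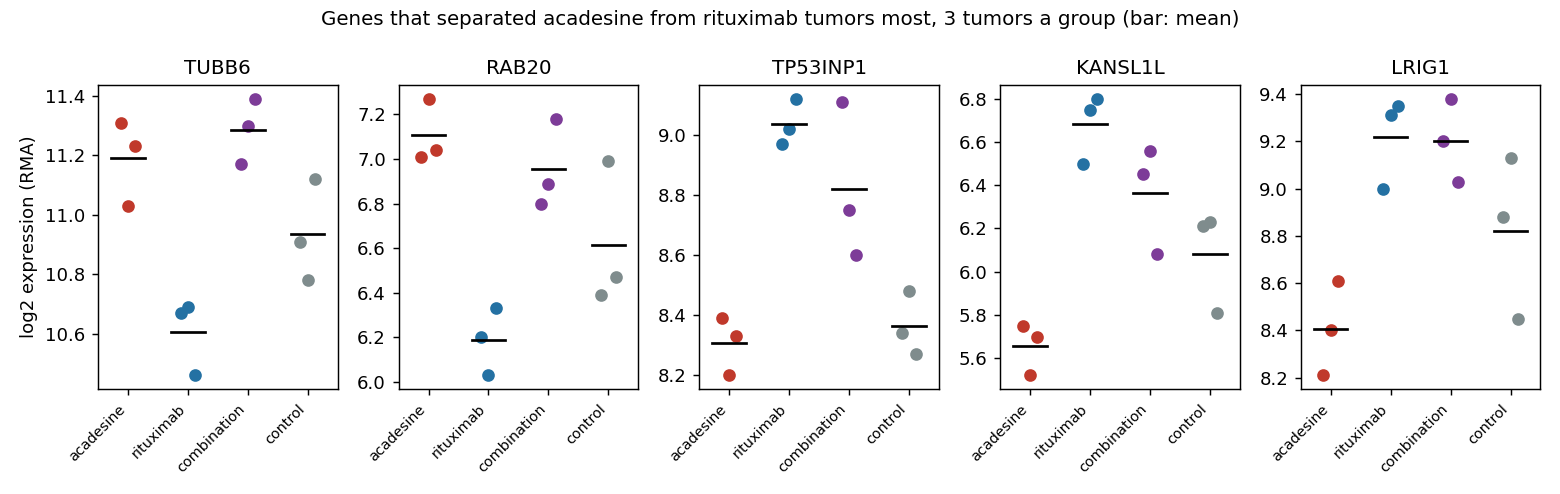
Log2 RMA level (y axis) of the 5 genes past the looser threshold in each of the 3 tumors (points) of 4 groups, with the group mean (bar). Acadesine and rituximab tumors do not overlap for any of the 5, and control means lie between them, as the choice of genes by their difference makes likely.

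The next genes by p, chosen among those whose groups did not overlap, filled the named genes up to 10 in each direction. AHNAK, a giant scaffold protein under the membrane, had levels of 9.66, 9.94 and 9.60 in acadesine tumors, against 9.22, 9.33 and 8.81 in rituximab tumors (difference 0.61). GCNT1, an enzyme that branches O-linked glycans, had 6.70, 6.60 and 7.28 in acadesine tumors, against 5.72, 5.91 and 6.39 in rituximab tumors (0.86). CDCA4, a cell cycle gene, and SCAND1, a SCAN domain protein, were higher by 0.54 and 0.44, although the other CDCA4 probe sets gave 0.02 and 0.07 and that of SCAND1 0.28. PRLH, MPIG6B, KIRREL3-AS3 and FOXA2 were also higher but had mean levels near 4, and the second probe set of MPIG6B gave 0.04. Among the lower ones, TCF4, a basic helix-loop-helix factor of B cell development, had 11.86, 11.76 and 11.81 in acadesine tumors, against 12.01, 12.19 and 12.02 in rituximab tumors (-0.26). All 10 of its other probe sets were also negative, but they ranged from -0.29 to -0.04. SMARCA1, an ATPase that slides nucleosomes, differed by -0.80 at dim mean levels of 4.18 in acadesine tumors and 4.97 in rituximab tumors, with its 4 other probe sets between -0.69 and -0.23. The remaining lower genes were MEX3C, an RNA-binding ubiquitin ligase (-0.49, and -0.14 with its other probe set), the zinc finger genes ZNF224 (-0.65) and ZNF181 (-0.61), and the dim DYNC1I1, whose other probe set gave 0.10, and ODF2L, whose others lay between -0.25 and -0.07. For 18 of the 20 genes the control mean lay between the means of both drugs, which their choice by the difference between the drugs makes likely.

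By the share of members at an unadjusted p of 0.05 and lower in acadesine tumors, the heat shock and chaperone genes came first among the 49 lists examined, but not by the share whose groups did not overlap. Of 26 measured members, 0 passed the adjusted threshold, 10 were lower and 0 higher at an unadjusted p of 0.05 (3.72% and 4.01% of all genes), and 23 were negative. The median difference was -0.18, against 0.01 over all genes. Only 3 members, HSPA1B, BAG3 and HSPA1L, had groups that did not overlap, all lower, a share of 11.5% against 5.27% of all genes, and 5 of 26 death receptor and caspase genes and 4 of 22 B cell transcription factors were separated lower. Those at an unadjusted p of 0.05 were HSPA1B, HSPA6 and HSPH1 of the HSP70 and HSP110 families, the HSP40 genes DNAJA1, DNAJB1, DNAJB4 and DNAJB6, and BAG3, CHORDC1 and HSPD1.

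Among the HSP70 family, HSPA1B, an inducible form, had levels of 9.63, 10.09 and 8.94 in acadesine tumors, against 10.10, 10.92 and 10.38 in rituximab tumors. The highest acadesine tumor was just under the lowest rituximab tumor, and the difference was -0.91 ± 0.288 (SE, limma unadjusted p = 0.00478, adjusted p = 0.571). HSPA1A, whose near-identical sequence means that probes may read both genes, had 9.59, 10.29 and 9.33 in acadesine tumors, against 9.62, 10.77 and 10.25 in rituximab tumors, which overlapped (-0.48, and -0.77 with a second probe set). HSPA6, a strictly inducible HSP70 that mice lack and whose promoter stretch is shown above, had 5.11, 6.33 and 4.79 in acadesine tumors, against 5.85, 7.25 and 5.89 in rituximab tumors (-0.92 ± 0.401, SE). In all 3 genes the second tumor was the highest of its own group, for both drugs. HSPA8, the constitutive HSP70, had 13.56, 13.77 and 13.45 in acadesine tumors, against 13.67, 13.67 and 13.58 in rituximab tumors, and differed by -0.05 ± 0.0751 (SE). Its promoter stretch also held the motif, and a link between motif and difference was not tested. The related HSPH1, an HSP110 that exchanges nucleotides on HSP70, differed by -0.38, and its 7 other probe sets lay between -0.67 and -0.40.

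The HSP40 proteins hand clients to HSP70, and 4 of their genes were among the 10. DNAJA1 had levels between 11.85 and 12.16 in acadesine tumors, against 12.11, 12.39 and 12.40 in rituximab tumors (-0.30 ± 0.0981, SE), and its 4 other probe sets lay between -0.37 and -0.23. DNAJB1 had 9.37, 8.99 and 8.25 in acadesine tumors, against 9.49, 9.89 and 9.18 in rituximab tumors (-0.65 ± 0.239, SE), and its groups overlapped through the first acadesine tumor. DNAJB4 differed by -0.60 and DNAJB6 by -0.27. By contrast DNAJB2, a form best known from neurons, was 0.18 higher, DNAJA4 differed by -0.21 and DNAJC3, a chaperone of the endoplasmic reticulum, by -0.09, all with overlap.

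Co-chaperones and the other families completed the list. BAG3, which links HSP70 to selective autophagy, had levels of 8.44, 8.74 and 8.25 in acadesine tumors, against 8.77, 9.32 and 8.75 in rituximab tumors, with no overlap (-0.47 ± 0.154, SE). CHORDC1, a partner of HSP90 whose promoter stretch held 3 matches, had 8.37, 9.42 and 8.71 in acadesine tumors, against 8.85, 9.75 and 9.84 in rituximab tumors (-0.65 ± 0.290, SE). HSPD1, the mitochondrial HSP60, differed by -0.21, and its partner HSPE1 by -0.15. The HSP90 genes HSP90AA1 and HSP90AB1 differed by -0.14 and -0.02, the HSP90 co-chaperones STIP1 and FKBP4 by 0.09 and -0.10, the small heat shock genes HSPB1 and CRYAB by -0.04 and 0.16, and HSF1 by -0.02. HSPA4, HSPA4L and HSPA1L differed by -0.16, -0.16 and -0.31, HSPA4L and HSPA1L at dim levels.

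**Figure D3:**
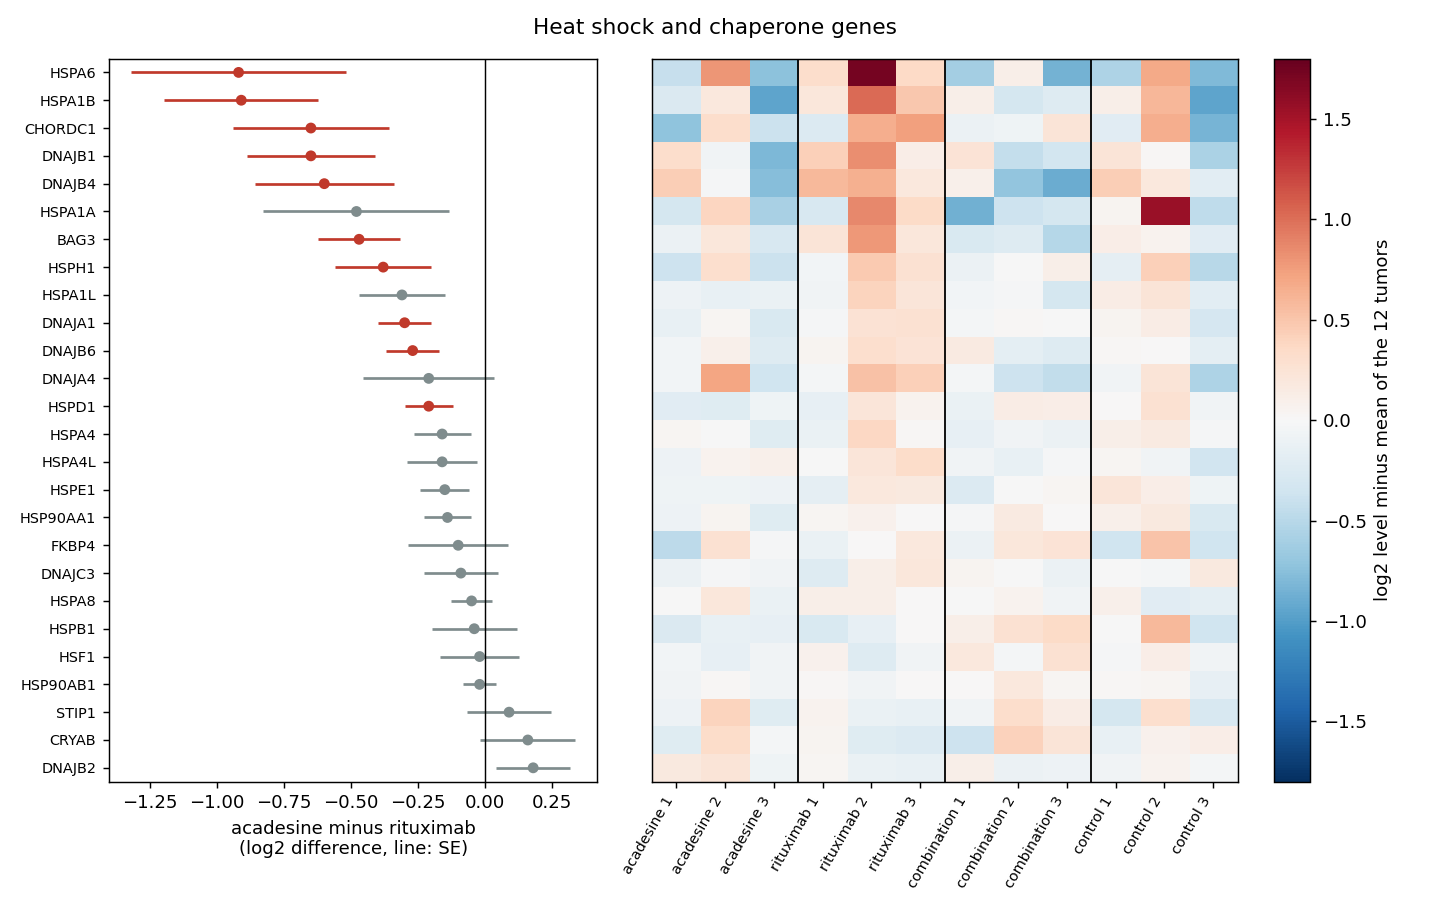
Left, difference between acadesine and rituximab tumors (x axis, log2, acadesine minus rituximab) with its standard error for each of the 26 heat shock and chaperone genes, red where the unadjusted p was below 0.05. Right, level of each gene in each of the 12 tumors minus its mean over the 12 (colour, log2), in which rituximab tumor 2 and control tumor 2 stand out as high and acadesine tumor 3 and control tumor 3 as low.

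The separation rested unevenly on single tumors. Among the 6 tumors, rituximab tumor 2 was the highest for 13 of the 26 genes and acadesine tumor 3 the lowest for 15, and each of these counts was 8 among the 10 genes at an unadjusted p of 0.05. Without rituximab tumor 2 the median of the list was -0.12 and 2 members were lower at an unadjusted p of 0.05, without acadesine tumor 3 the values were -0.16 and 3, and without acadesine tumor 1 they were -0.17 and 6. Without tumor 2 of both groups, the highest in muscle genes, the median was -0.18 and 7 members were lower. Set against the shared controls, the list median was -0.08 in acadesine tumors and 0.11 in rituximab tumors, and combination tumors, which also received rituximab, had -0.02. HSPA1B averaged 9.56 ± 0.58 in acadesine tumors, 10.47 ± 0.42 in rituximab tumors, 9.75 ± 0.22 in combination tumors and 9.81 ± 0.80 in control tumors (SD, n = 3 each), so controls alone spanned 8.94 to 10.50. Over the whole list, the control mean was nearer to the acadesine mean for 15 of 26 genes and nearer to the rituximab mean for 11, and the combination mean was below the rituximab mean for 17 of 26. Among the 10 genes at an unadjusted p of 0.05, these counts were 9, 1 and 9. Those 10 were picked for their difference between the drugs, which by itself makes a combination mean below the rituximab mean more likely.

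The named genes of the drugs' routes overlapped between the groups. MS4A1, which encodes CD20, had levels of 12.13, 12.28 and 12.13 in acadesine tumors, against 11.99, 12.59 and 12.21 in rituximab tumors, and differed by -0.08 ± 0.1 (SE). ADK, adenosine kinase, differed by -0.05 ± 0.0908, the nucleoside transporter SLC29A1 by 0.16 ± 0.158 and ATIC, which consumes ZMP, by -0.03 ± 0.0807 (SE). The catalytic AMPK subunits PRKAA1 and PRKAA2 differed by -0.02 and 0.01. Of 15 AMPK subunits and upstream kinases, 0 were at an unadjusted p of 0.05 and 1 (6.67%) did not overlap, and of 29 measured genes of acadesine uptake and purine synthesis, 0 were at that p and 3 (10.3%) did not overlap, against 12.3% of all genes. The complement regulators CD46, CD55 and CD59, which protect a cell from antibody-directed complement, differed by 0.15, 0.07 and 0.19. The lymphoma genes CCND1 (0.04), SOX11 (0.21) and CXCR4 (-0.12) and the proliferation marker MKI67 (0.14) all overlapped.

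Genes of nutrient and energy stress were mixed. ARRDC4 and TXNIP, a pair of alpha-arrestins that limit glucose uptake, differed by -0.41 and -0.29. ARRDC4 had 8.04, 7.85 and 7.76 in acadesine tumors, against 8.38, 8.32 and 8.20 in rituximab tumors, without overlap, and TXNIP had 11.24, 10.91 and 10.83 in acadesine tumors, against 11.39, 11.45 and 11.01 in rituximab tumors, with overlap. Other probe sets gave -0.21 and -0.11 for ARRDC4 and lay between -0.23 and -0.13 for TXNIP. PPARGC1A, a coactivator of mitochondrial genes, was 0.36 higher at a dim level. The ATF4 list held 20 genes, ATF4, the factor of the amino acid and integrated stress response, and genes of that response. Of these, 5 were higher and 0 lower at an unadjusted p of 0.05 (4.01% and 3.72% of all genes), and 13 were positive and 7 negative. The median was 0.14, and 2 were separated higher and 1 lower (7.02% and 5.27% of all genes). Without rituximab tumor 2 the count of members higher at that p was 2 and the median 0.08, without acadesine tumor 3 they were 3 and 0.08, and without acadesine tumor 1 they were 3 and 0.14. TRIB3, a pseudokinase, had 8.41, 8.27 and 8.53 in acadesine tumors, against 7.97, 7.92 and 8.05 in rituximab tumors (0.42 ± 0.143, SE), and PPP1R15A, which restarts translation after stress, had 5.52, 5.25 and 5.12 in acadesine tumors, against 4.94, 4.84 and 4.84 in rituximab tumors (0.42). The second TRIB3 probe set gave 0.15 at a dim level of 4.35. ATF5 was 0.40 higher with overlap, and its 3 other probe sets gave 0.46 to 0.56, while SESN2 differed by -0.21. Glycolysis and hypoxia genes were positive for 22 of 28 members, with 0 at an unadjusted p of 0.05 in either direction, 4 separated higher and 0 lower (7.02% and 5.27% of all genes), ENO1 (0.13) and HK2 (0.21) among them, and a median of 0.09. SREBF1, a factor of lipid synthesis, was 0.54 higher and ELOVL6, a fatty acid elongase, differed by -0.46, each without overlap. Oxidative phosphorylation had a median of 0.01 and 0 of 32 genes at that p.

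**Figure D4:**
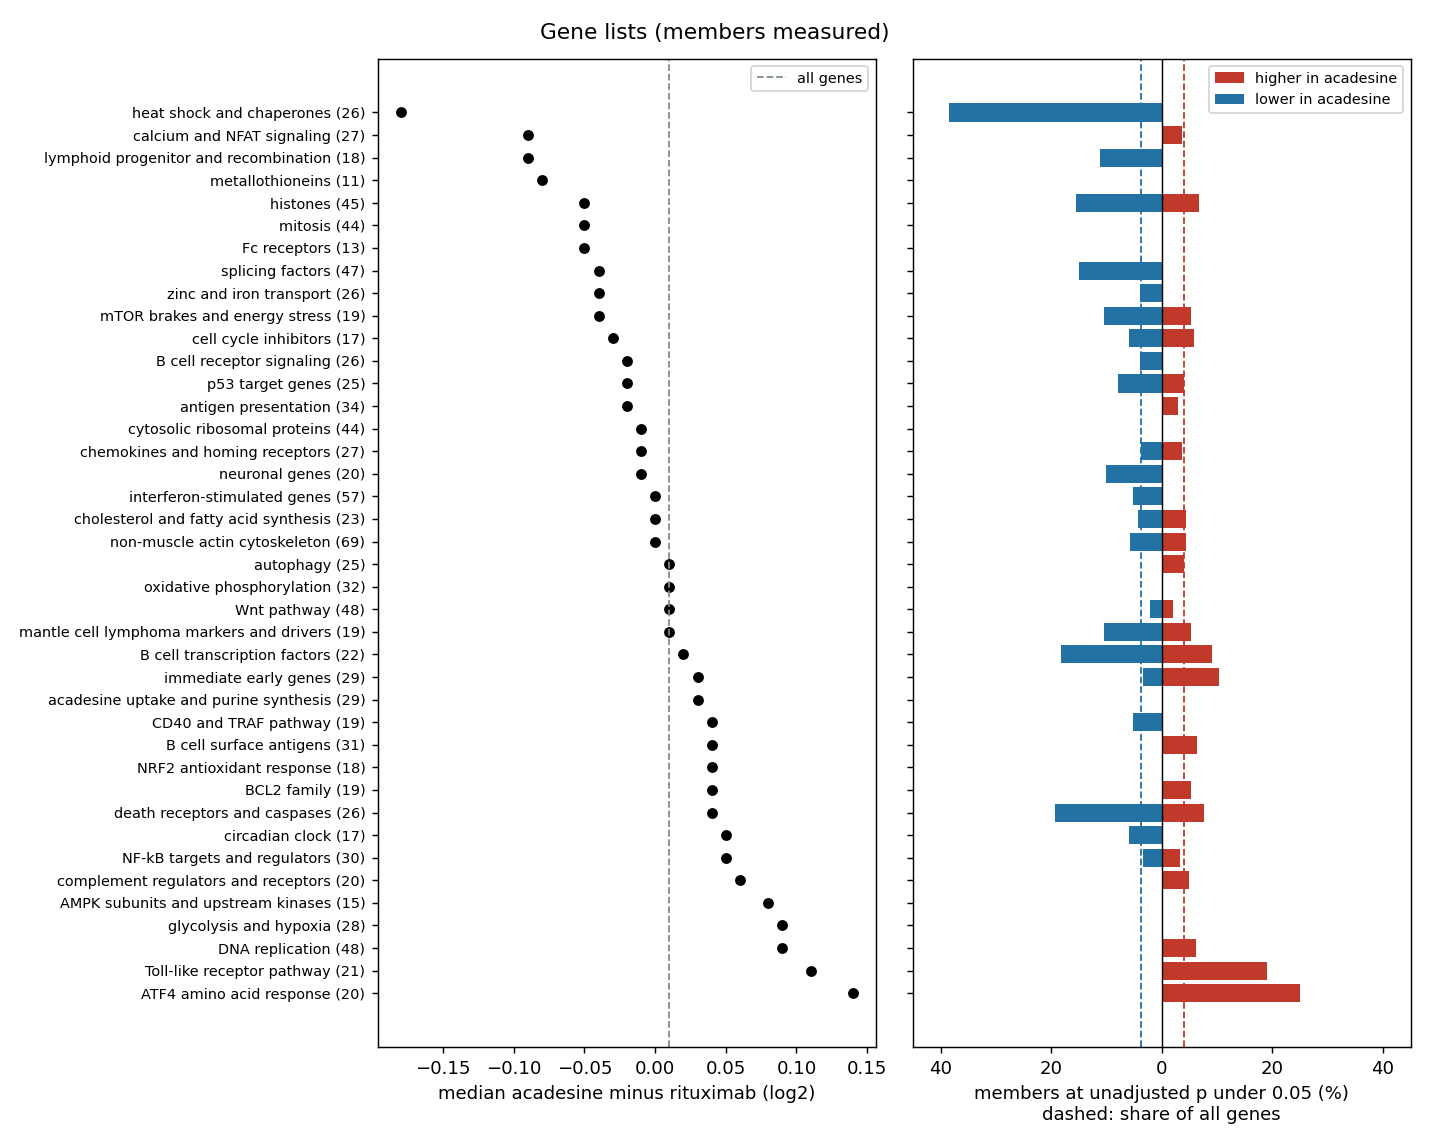
Left, median difference between acadesine and rituximab tumors (x axis, log2, acadesine minus rituximab) of each of 40 gene lists, with the number of measured members in brackets and the median of all genes dashed. Right, percent of members at an unadjusted p below 0.05, higher (red, to the right) or lower (blue, to the left) in acadesine tumors, with the shares of all genes dashed at 4.01% and 3.72%. The heat shock list is farthest to the left and the ATF4 list farthest to the right.

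Genes of cell death and of the p53 response lay in both directions. Of 26 death receptor and caspase genes, 2 were higher and 5 lower at an unadjusted p of 0.05 (4.01% and 3.72% of all genes), and 2 and 5 did not overlap (7.02% and 5.27%). The 5 lower became 1 without rituximab tumor 2, 2 without acadesine tumor 3 or rituximab tumor 3, and 3 without acadesine tumor 1, and the 2 higher became 1 without rituximab tumor 3. TNFRSF10D, a decoy receptor for TRAIL, had levels of 5.81, 6.21 and 5.36 in acadesine tumors, against 6.92, 6.66 and 6.31 in rituximab tumors (-0.84 ± 0.259, SE), and a second probe set gave -0.05. DEDD2, a death effector domain protein, differed by -0.68 and BIRC2, an inhibitor of apoptosis, by -0.16, whereas the TNF receptor TNFRSF1B was 0.49 higher at dim levels, with means of 4.73 in acadesine tumors and 4.24 in rituximab tumors, and CFLAR, which blocks caspase 8, 0.30 higher. BID, which carries a death signal to mitochondria, had 8.83, 8.66 and 8.66 in acadesine tumors, against 8.41, 8.20 and 8.50 in rituximab tumors (0.35). Of 25 p53 targets, 1 was higher and 2 lower at that p (4.01% and 3.72% of all genes): CDKN1A, the inhibitor p21, by 0.46, and TP53INP1 and CCNG1 by -0.73 and -0.29.

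B cell and immune genes differed member by member. Of 22 B cell transcription factors, 2 were higher and 4 lower at an unadjusted p of 0.05 (4.01% and 3.72% of all genes), and 2 and 4 did not overlap (7.02% and 5.27% of all genes). Without rituximab tumor 2 the 4 lower became 2, and without acadesine tumor 2, acadesine tumor 3 or rituximab tumor 1 the 2 higher became 1. Beside TCF4, ETS1 had 11.85, 11.78 and 11.89 in acadesine tumors, against 11.96, 12.21 and 11.99 in rituximab tumors (-0.21), and BACH2, a repressor of plasma cell fate, had 9.75, 9.92 and 9.82 in acadesine tumors, against 10.10, 10.07 and 10.19 in rituximab tumors (-0.29). Other probe sets gave -0.25 and -0.01 for ETS1 and -0.20 for BACH2. SPI1, at a dim level, and ID2, an inhibitor of basic helix-loop-helix factors, were 0.36 and 0.44 higher. Of 21 Toll-like receptor pathway genes, 4 were higher and 0 lower at that p (4.01% and 3.72% of all genes), and 4 and 0 did not overlap (7.02% and 5.27%). However, UNC93B1 (0.59), TLR9 (0.44) and IRAK2 (0.50) all had levels near or under 5. The 4 higher at that p became 1 without acadesine tumor 1 and 2 without acadesine tumor 2 or rituximab tumor 3. Of 57 interferon-stimulated genes, 28 were positive and 29 negative, and 0 were separated higher and 2 lower (7.02% and 5.27% of all genes). At that p 0 were higher and 3 lower (4.01% and 3.72% of all genes): PARP14 (-0.39), the RNA sensor IFIH1 (-0.48) and SP100 (-0.22). Without rituximab tumor 2 these counts became 3 higher and 0 lower, without acadesine tumor 2 4 higher and 2 lower, without rituximab tumor 1 0 and 5, and without acadesine tumor 3 or rituximab tumor 3 0 and 2. The recombinase genes RAG1 and RAG2 differed by -0.77 and -0.53 with overlap, SOX4, a factor of early B cells, by -0.24 without overlap, and the homing receptors S1PR1 and P2RY14 by -0.50 and 0.68 with overlap. C1S, a complement protease, was 0.48 higher near the dim end of the range.

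Genes of the cell cycle, chromatin and RNA showed small differences. Of 48 DNA replication genes, 35 were positive with a median of 0.09, and 7 were separated higher and 2 lower (7.02% and 5.27% of all genes). At an unadjusted p of 0.05, 3 were higher and 0 lower (4.01% and 3.72% of all genes). This count of 3 became 11 without rituximab tumor 1, 0 without rituximab tumor 2 or 3, and 1 without acadesine tumor 2, and without acadesine tumor 3 there were 2 higher and 1 lower. RRM2, which makes deoxynucleotides, had 10.13, 9.87 and 10.18 in acadesine tumors, against 9.98, 9.65 and 9.64 in rituximab tumors (0.30), POLA2, a subunit of the priming polymerase, was 0.29 higher and MCM3, of the replicative helicase, 0.20 higher, while TYMS differed by -0.08. Of 44 mitosis genes, 0 were at that p, and the median was -0.05. Of 45 histone genes, 3 were higher and 7 lower at that p (4.01% and 3.72% of all genes), and 2 and 6 did not overlap (7.02% and 5.27%). Leaving out 1 of the 6 tumors gave 0 to 2 higher and 4 to 7 lower. There were 0 higher without rituximab tumor 2 and 4 lower without acadesine tumor 3 or rituximab tumor 1. H2AC11 (-0.45), H2BC5 (-0.32) and H2BC8 (-0.29) were lower without overlap, and H1-3 (0.33) and H4C12 (0.32) higher, also without overlap. Histone genes are near-identical copies, so probes may read several. Of 47 splicing factors, 0 were higher and 7 lower at that p (4.01% and 3.72% of all genes), CLK1 (-0.30), SRSF11 (-0.21) and HNRNPA2B1 (-0.29) among the lower. However, 3 were separated higher and 3 lower (7.02% and 5.27% of all genes), 20 were positive, and the median was -0.04. Without rituximab tumor 2, 2 splicing factors were lower, and without rituximab tumor 1, 11 were lower and 3 higher. Leaving out acadesine tumor 1 gave 4 lower and 3 higher, and leaving out rituximab tumor 3 gave 4 lower. The clock gene NR1D2, a nuclear receptor repressor, had 7.30, 7.04 and 7.35 in acadesine tumors, against 7.49, 7.87 and 8.12 in rituximab tumors (-0.60 ± 0.164, SE), and its target BMAL1 differed by -0.37, both without overlap. The 3 other NR1D2 probe sets lay between -0.30 and -0.15. Of 17 clock genes, 10 were positive and 7 negative, with a median of 0.05. At that p 0 were higher and 1 lower, and 1 was separated higher and 3 lower (7.02% and 5.27% of all genes).

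Metals, muscle and matrix were uneven between tumors of 1 group. The list of metallothioneins, which bind zinc and copper, also held the gene MTF1, which is not one of them. It had 0 of 11 members at an unadjusted p of 0.05 and 0 separated, and the list medians against shared controls were -0.38 for acadesine, -0.25 for rituximab and -0.56 for the combination. MT1X had 7.59, 8.48 and 7.67 in acadesine tumors, against 7.57, 8.37 and 7.31 in rituximab tumors, and MT1H had 5.10, 7.04 and 5.15 in acadesine tumors, against 5.97, 7.07 and 5.56 in rituximab tumors, so tumor 2 was the highest of each group. The muscle genes TPM1, with 6.49, 10.34 and 8.26 in acadesine tumors, against 4.53, 9.93 and 4.71 in rituximab tumors, and ACTA1, with 5.71, 8.66 and 6.71 in acadesine tumors, against 4.39, 8.71 and 4.86 in rituximab tumors, had the largest differences of all genes, 1.97 ± 1.61 and 1.04 ± 1.27 (SE), and overlapped. The muscle list, whose largest difference was that of TPM1 itself, was also highest in tumor 2 of each group. Its mean was 4.52 in tumor 1 of both groups, where TPM1 and ACTA1 differed. Of its 46 members 25 were positive and 21 negative, with a median of 0.03. At that p 2 were higher and 0 lower (4.01% and 3.72% of all genes), MB by 0.42 among them at a dim level. The part of muscle RNA in these differences was not tested. COL1A1, a fibroblast collagen, had 5.12, 5.16 and 5.17 in acadesine tumors, against 4.37, 4.15 and 4.85 in rituximab tumors (0.69), with 2 of its 4 other probe sets negative. Of 24 fibroblast markers, 15 were positive and 9 negative, with a median of 0.06 and a lowest difference of -0.33. At that p 2 were higher and 0 lower (4.01% and 3.72% of all genes), COL1A1 and the dim COL3A1 (0.31). Of 69 actin cytoskeleton genes, 3 were higher and 4 lower at that p (4.01% and 3.72% of all genes), and 6 were separated higher and 3 lower (7.02% and 5.27%). ARPC4 (0.31) and LIMA1 (0.45) were higher without overlap, and RDX, which ties actin to the membrane, differed by -0.27 with overlap. Without rituximab tumor 2 the actin counts were 2 higher and 0 lower, without rituximab tumor 1 they were 5 and 9, without rituximab tumor 3 they were 1 and 1, and without acadesine tumor 2 they were 2 and 2.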

How the data were processed

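RNA of 12 tumors (4 groups of 3) was hybridised to Affymetrix HT HG-U219 arrays from 150 ng of total RNA. The deposited log2 values were made by the authors with RMA of the BioConductor affy package (background correction, quantile normalization between arrays, summary per probe set). Its version is not given in the sources used here, and scans and their dates were not used here. Of 49293 probe sets, 45253 named 1 gene, 1327 several and 2713 had no entry in the annotation table. Each of the 18239 genes was represented by its brightest probe set on average across arrays, and 6417 had a single one. The number of arrays limits the precision.

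Acadesine minus rituximab was estimated from a model of all 4 groups in limma 3.58.1 (R 4.3.3) with an intensity trend and adjusted by Benjamini-Hochberg over all genes at 0.05. The study's looser limits (0.2 and a 1.4-fold change) were an alternative, but its Rank Products test was not run. An exact permutation test of 3 against 3 cannot go below p = 0.1. On simulated data for this comparison with 18239 genes, 88 of 100 genes with a log2 change of 1 were called, 39 of 100 with 0.5, and 5 of 18039 unchanged genes. Its noise was normal, independent for each gene and of the residual spread of that gene. Variation that a tumor shares across genes was not simulated, so these shares need not hold for the tumors.

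Named genes were the 10 of smallest p in each direction without overlap, since 0 passed, genes of the drugs' routes and of mantle cell lymphoma, the first 5 entries in each direction of the study's supplementary list, and up to 3 members of each list in each direction. Not all were printed. The comparison and the 49 lists were chosen with earlier results of these data known, so counts over lists are descriptions. Promoter sequences came from RefSeq, GRCh38.p14. Alternatives were other probe set rules, variance models, scalings, covariates and leaving out tumors. Python 3.11.15 with pandas 2.3.3, numpy 2.4.6 and matplotlib 3.10.9 was used.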

Additional observations from a re-analysis of the deposited data

How the results depend on the processing

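Of the results, the count of genes at an adjusted p of 0.05 was 0 as reported and also 0 in the 6 tumors alone, with the mean of probe sets, above the median level, without the trend, with cyclic loess, median centring and the muscle covariate. It was 3 with robust variance (TUBB6, KANSL1L, TP53INP1), 4 with array weights (these and LRIG1), 3 without tumor 2 of both drug groups (NPPA, TUBB6, DHRS2), 1 with every probe set on its own (TUBB6) and 5 at the looser limits. Leaving out 1 tumor at a time gave 0 to 5 genes: 5 without control tumor 2, 3 without control tumor 3, 2 without acadesine tumor 2, and 0 otherwise. With the replicate block the count was 0 and the smallest adjusted p 0.104. Deviations from the group means correlated across genes at r = -0.117, -0.036 and 0.117 for same-numbered tumors. Pairs of unlike number lay between -0.138 and 0.147. This correlation over all genes cannot exclude that tumors of 1 number shared handling, which would also bear on smaller sets of genes. The labels state no pairing. At the looser limits, 122 genes passed without rituximab tumor 1 and 0 without acadesine tumor 1, acadesine tumor 3, rituximab tumor 2 or rituximab tumor 3. The cause was not tested.

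The count of separated genes lay between 1192 (over the 9119 genes above the median level, fewer genes tested) and 2247. The median of the heat shock list stayed negative under every alternative run, at -0.29 to -0.12 when 1 tumor was left out, and its count of lower members was 5 without the intensity trend and 4 with robust variance, against 10. All 20 genes of smallest p kept their sign in all 453 of their alternative values, 17 of which passed the threshold, in 5 genes. Most of this was fixed beforehand. These genes were chosen without overlap, so leaving out an acadesine or rituximab tumor cannot turn their sign. Fits without the trend, with robust variance or without a control or combination tumor cannot change a difference at all. Settings that could turn a sign, such as the mean of probe sets, cyclic loess and median centring, did not.

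Genes with small differences, CFLAR the largest of them at 0.30, turned sign in 43 of 2690 values over 118 genes, and none of these values was past the threshold. The 2690 values include the fits named above that cannot change a difference. With array weights HSF1 was 0.0031 and PRKAA2 -0.01, with the muscle covariate HSF1 was 0.01 and PRKAA1 0.0023, with cyclic loess HSP90AB1 was 0.00082 and PRKAA2 -0.0038, and with median centring PRKAA2 was -0.02. With the mean of probe sets DNAJB2 was -0.0034, STIP1 -0.14, CD59 -0.05, SOX11 -0.06 and CFLAR -0.0037. Without tumor 2 of both drugs STIP1 was -0.12, CRYAB -0.03, MS4A1 0.03, PRKAA1 0.07 and SOX11 -0.01. Leaving out 1 tumor at a time gave ranges of -0.10 to 0.05 for HSF1, -0.14 to 0.03 for HSPA8, -0.11 to 0.03 for HSPB1, -0.51 to 0.03 for DNAJA4, -0.10 to 0.21 for STIP1, -0.27 to 0.10 for FKBP4, -0.22 to 0.08 for MS4A1, -0.09 to 0.0015 for ADK, -0.08 to 0.0013 for ATIC, -0.12 to 0.05 for PRKAA1, -0.20 to 0.14 for PRKAA2, -0.07 to 0.16 for CD55, -0.0047 to 0.12 for CCND1, -0.09 to 0.44 for SOX11, -0.22 to 0.04 for CXCR4 and -0.13 to 0.47 for MT1X.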
